A study of Mus musculus with 13 samples.

Results

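The smooth muscle contractile genes described here are 10 genes: Acta2, Tagln, Tagln2, Cnn1, Cnn2, Tpm1, Tpm2, Myl9, Mylk and Actg2. They were chosen by name as rows of the deposited expression tables, because Acta2 was known from these data to be much higher in haemogenic endothelium than in its Flk-1+ precursors. All 10 were among the 45250 features of the table. The study asked how loss of the transcriptional regulators LMO2 and TAL1 affects blood formation from mouse ES cells in culture. Flk-1+ cells, which carry the VEGF receptor and include haemangioblasts, were isolated from embryoid bodies of WT, Lmo2-/- and Tal1-/- ES cells, with 3 libraries of each. HE1, the first haemogenic endothelium (Tie2+, Kit+, CD41-), was sorted from blast cultures of WT and Lmo2-/- Flk-1+ cells, with 2 libraries of each. The WT cells were of the CCB line and each mutant genotype was 1 ES cell line, so that genotype and line cannot be told apart.

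Smooth muscle contraction is driven by actin filaments that slide past myosin. Acta2 and Actg2 encode the smooth muscle actins, and Tpm1 and Tpm2 encode tropomyosins, which lie along the filaments. Tagln (transgelin, SM22-alpha), Tagln2, Cnn1 and Cnn2 (calponins) encode proteins that bind actin. Mylk encodes the kinase that phosphorylates myosin light chain and so starts contraction, and Myl9 encodes such a light chain. Acta2, Tagln and Cnn1 are commonly used as smooth muscle markers, whereas Tagln2, Cnn2 and Tpm1 are also made by many other cells. Many of these genes are known targets of serum response factor (SRF), which binds a DNA element named the CArG box together with its cofactors myocardin (Myocd) and the related Mkl1 and Mkl2. Haemangioblasts are known to give rise to smooth muscle as well as to endothelium and blood.

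The 250 bases upstream of the start are shown for the members in which RefSeq (GRCm38.p6) holds a sequence close to the CArG box. Windows were given for 8 of the 10 members, Tagln and Actg2 being the exceptions, and the window of Mylk lies inside the long gene and not at its first exon. The start is the base that follows each window. In each of the other windows the gene start of GENCODE M21 lies inside the window, at 34255590 for Acta2, 79988584 for Cnn2 and 156775420 for Myl9. Part of each window thus lies within the gene as GENCODE gives it. The exact box was present in 2 of the 8 windows, those of Cnn2 and Myl9, and in 1.47 percent of all 32851 windows of this length. A box with at most 1 of its 6 central A or T letters replaced was present in 3 of the 8 windows, those of Acta2, Cnn2 and Myl9, and in 8.59 percent of all windows. The box reads the same way on both strands, so 1 search covers both. A match describes the letters only. Capitals mark the matches, which begin 84 and 34 bases before the start in Acta2, 56 bases before it in Cnn2, and 161 and 99 bases before it in Myl9. The windows are chr19:34255374-34255623 (minus strand) for Acta2, chr10:79988350-79988599 (plus strand) for Cnn2 and chr2:156775214-156775463 (plus strand) for Myl9.
Acta2: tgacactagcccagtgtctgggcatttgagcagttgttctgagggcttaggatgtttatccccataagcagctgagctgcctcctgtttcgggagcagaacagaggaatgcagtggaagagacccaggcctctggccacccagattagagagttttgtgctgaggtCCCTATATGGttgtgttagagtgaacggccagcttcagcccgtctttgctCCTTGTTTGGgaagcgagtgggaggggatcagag
Cnn2: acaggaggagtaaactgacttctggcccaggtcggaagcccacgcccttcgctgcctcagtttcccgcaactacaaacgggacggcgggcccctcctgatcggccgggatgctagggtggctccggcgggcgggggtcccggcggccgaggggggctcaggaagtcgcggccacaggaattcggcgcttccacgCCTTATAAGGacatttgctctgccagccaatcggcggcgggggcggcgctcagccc
Myl9: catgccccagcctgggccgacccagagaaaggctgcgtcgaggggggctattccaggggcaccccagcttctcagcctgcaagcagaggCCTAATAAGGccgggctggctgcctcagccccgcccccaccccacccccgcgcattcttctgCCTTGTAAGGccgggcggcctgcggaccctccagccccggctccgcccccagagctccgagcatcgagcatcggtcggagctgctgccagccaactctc

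The value given for each gene is its FPKM, the number of fragments per kilobase of its transcripts with libraries scaled to each other, so levels can be set side by side between genes. Fragment counts are not in the table, and the depth of each value is unknown. Lmo2-/- HE1 replicate 1 stood apart: 9694 genes were above 0 in it, against 11861 to 15641 in the other 12 libraries. Over low genes detected in few libraries, the most frequent ratio of its FPKM to that of another library was 3.86, and for each of the other 12 libraries this ratio was between 0.638 and 1.57. It listed 191 of the 4079 genes whose median exceeded 10 FPKM at 0, where the others listed 1 to 59 of them. A value listed at 0 may therefore be a failed estimate. Myl6, a light chain gene that most cells use, was listed at 0 in both Lmo2-/- HE1 libraries. The targeted gene Lmo2 was at 21.6 to 30.8 FPKM in WT and 2.17 to 6.48 FPKM in Lmo2-/- Flk-1+ cells. In HE1 it did not separate the labels, with 4.30 and 20.6 FPKM in the libraries labelled WT and 6.42 and 0 FPKM in those labelled Lmo2-/-. Each HE1 library is named below by its label, and every direction between the HE1 genotypes rests on those labels. Tal1 was at 22.0 to 37.4 FPKM in WT and 2.74 to 3.41 FPKM in Tal1-/- Flk-1+ cells.

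Cell identity was checked with marker genes. The endothelial markers Tek (Tie2), Kit and Cdh5 were at 121 to 176, 42.4 to 68.5 and 281 to 452 FPKM in the 4 HE1 libraries, and Kdr (Flk-1) was at 68.7 to 252 FPKM in Flk-1+ cells. Itga2b (CD41), against which HE1 was sorted, was at 15.4 and 10.4 FPKM in the HE1 libraries labelled WT, and at 19.8 and 0 FPKM in those labelled Lmo2-/-. Of 5 smooth muscle markers, 4 were low. Myh11, the smooth muscle myosin heavy chain, did not exceed 0.617 FPKM in any library, leiomodin (Lmod1) did not exceed 0.469, Synpo2 did not exceed 1.12 and Des (desmin) did not exceed 8.09. The fifth, Smtn (smoothelin), was at 19.6 to 34.4 FPKM in HE1 and 2.01 to 15.7 FPKM in Flk-1+ cells. The name of the gene set refers to what these genes are known for. Of the endothelial list, Cldn5 was at or below 1.07 FPKM in all libraries, and Emcn was at 7.84 and 8.02 FPKM in HE1 labelled WT and listed at 0 in HE1 labelled Lmo2-/-.

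Acta2 (chromosome 19, 34241090 to 34255336 in GRCm38 as the files give it) was barely detected in Flk-1+ cells. Its FPKM were 0.690, 0.926 and 0.239 in WT, 0.394, 0.976 and 0.553 in Lmo2-/- and 0.260, 0.721 and 0 in Tal1-/- Flk-1+ cells. In HE1 they were 165 and 114 in the libraries labelled WT, and 263 and 816 in those labelled Lmo2-/-. Every HE1 library lay far above every Flk-1+ library, and the HE1 libraries of the genotypes did not overlap. The ratio of the mean FPKM of HE1 to that of Flk-1+ cells was 226 in WT and 841 in Lmo2-/-, and 410 in Lmo2-/- without HE1 replicate 1 or 1272 without replicate 0. This step was the reason for the choice of genes, so it is described without a test. Ranked among all 45250 features of a library, Acta2 was between 10876 and 13889 in Flk-1+ cells, and 167, 274, 86 and 44 in WT replicates 0 and 1 and Lmo2-/- replicates 0 and 1 of HE1. In bulk libraries a change in the share of cells that express a gene and a change in RNA per cell cannot be told apart.

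**Figure D1:**
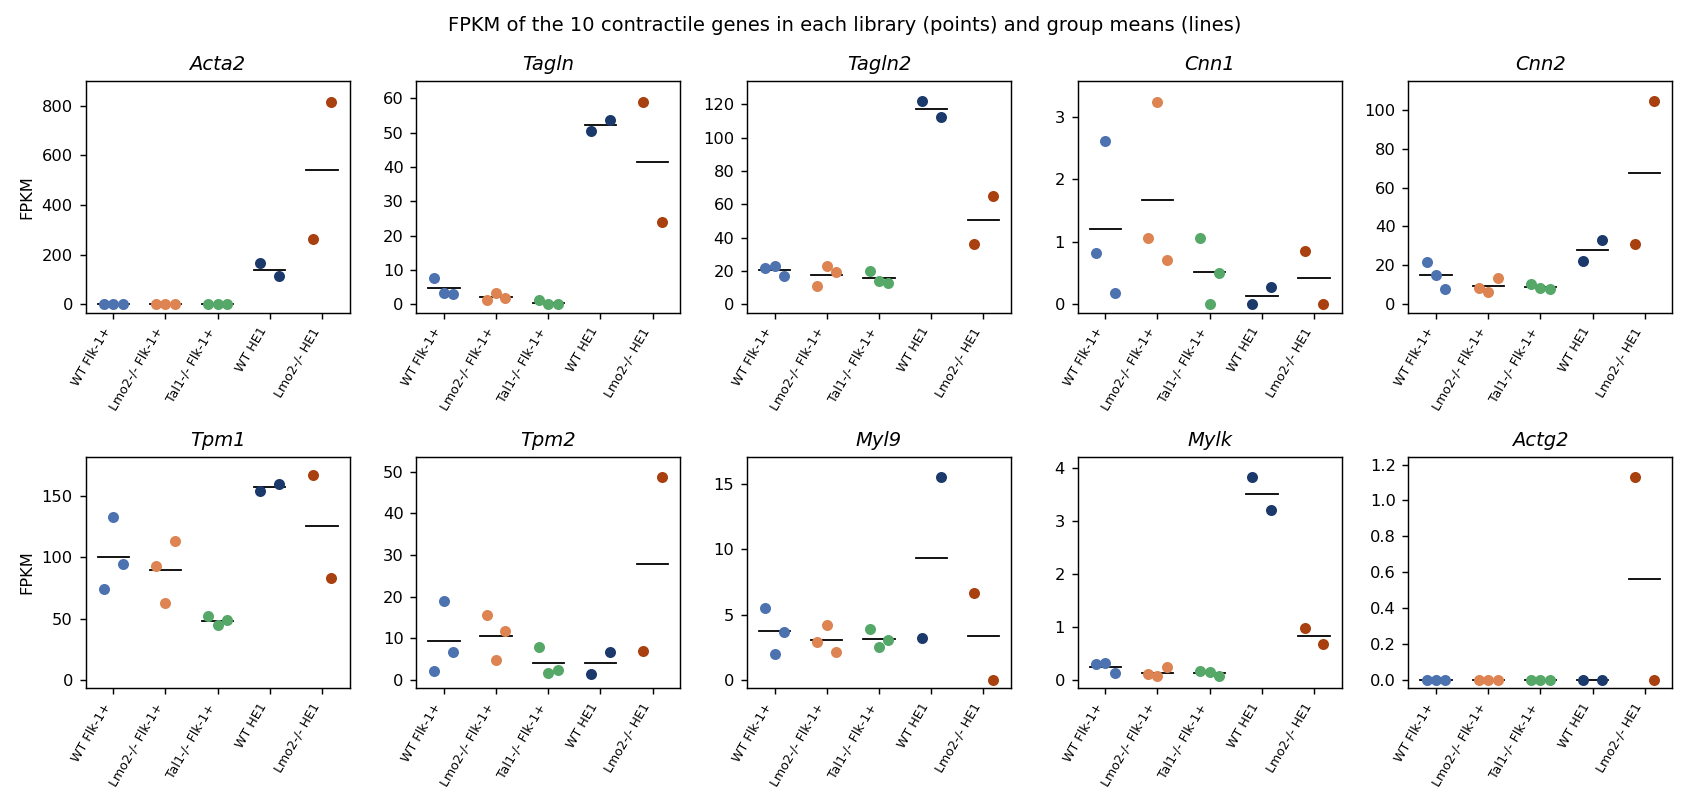
FPKM (vertical axes, each with its own scale) of the 10 genes in each of the 13 libraries (points), by group, with group means as lines. Acta2 was at 114 to 816 FPKM in HE1 and below 1 FPKM in every Flk-1+ library, whereas Cnn1 did not exceed 3.24 FPKM anywhere and Actg2 was above 0 in 1 library.

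The transgelins were both higher in HE1. Tagln (chromosome 9) was at 7.52, 3.25 and 2.98 FPKM in WT, 1.34, 3.32 and 1.73 FPKM in Lmo2-/-, and 1.33, 0 and 0 FPKM in Tal1-/- Flk-1+ cells. It was at 50.5 and 53.7 FPKM in HE1 labelled WT and at 59.0 and 24.1 FPKM in HE1 labelled Lmo2-/-. The lowest HE1 value was thus above the highest Flk-1+ value. The locus that the files give for Tagln spans 97479 bp from 45838580 to 45936058, where GENCODE M21 gives the gene 6440 bp, and it takes in 7 other genes, of which 3 code for proteins. Its FPKM may hold fragments of these genes and is uncertain.

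Tagln2 (chromosome 1, 172500047 to 172507380) was expressed in every library. It was at 21.9, 22.9 and 17.1 FPKM in WT Flk-1+ cells and at 122 and 112 FPKM in HE1 labelled WT, a ratio of the means of 5.69. In Lmo2-/- cells it was at 10.8, 22.9 and 19.6 FPKM in Flk-1+ cells and 36.0 and 65.1 FPKM in HE1, a ratio of 2.85. The HE1 libraries labelled Lmo2-/- were both below those labelled WT and above all Flk-1+ libraries.

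The calponins differed from each other in level. Cnn2 (chromosome 10, 79988584 to 79996062) was at 21.6, 15.2 and 7.77 FPKM in WT, 8.24, 6.44 and 13.6 FPKM in Lmo2-/- and 7.73 to 10.5 FPKM in Tal1-/- Flk-1+ cells. In HE1 it was at 22.3 and 33.0 FPKM in libraries labelled WT, and at 30.9 and 104 FPKM in those labelled Lmo2-/-. The gap between the lower WT HE1 library and the highest WT Flk-1+ library was small. Cnn1, the calponin used as a smooth muscle marker (chromosome 9, 22099281 to 22109630), was at 0.176 to 3.24 FPKM in Flk-1+ cells of WT and Lmo2-/- origin and at 0, 0.277, 0.853 and 0 FPKM in the HE1 libraries. Cnn1 was thus not higher in HE1 where Acta2 was.

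The tropomyosins were less tied to stage. Tpm1 (chromosome 9, 67022590 to 67049406) was the most abundant member in every Flk-1+ library, at 74.1, 133 and 94.6 FPKM in WT and 93.3, 62.7 and 113 FPKM in Lmo2-/- cells. It was at 155 and 160 FPKM in HE1 labelled WT, and at 168 and 83.4 FPKM in HE1 labelled Lmo2-/-, so that the stages overlapped in Lmo2-/- cells. Tpm2 (chromosome 4, 43514711 to 43523765) varied widely within groups, at 2.03, 19.0 and 6.66 FPKM in WT Flk-1+ cells, 15.5, 4.70 and 11.6 FPKM in Lmo2-/- Flk-1+ cells, 1.38 and 6.80 FPKM in HE1 labelled WT, and 6.83 and 48.7 FPKM in HE1 labelled Lmo2-/-. The stages overlapped in both genotypes.

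The myosin side of the set was low. Myl9 (chromosome 2, 156775420 to 156781658) was at 1.99 to 5.50 FPKM in all 9 Flk-1+ libraries, at 3.18 and 15.5 FPKM in HE1 labelled WT, and at 6.66 and 0 FPKM in HE1 labelled Lmo2-/-. Mylk (chromosome 16, 34745210 to 35002420) was at 0.0700 to 0.325 FPKM in Flk-1+ cells. It was at 3.83 and 3.21 FPKM in HE1 labelled WT and at 0.984 and 0.672 FPKM in HE1 labelled Lmo2-/-. All 4 HE1 libraries were above all Flk-1+ libraries for Mylk, although at levels far below those of Acta2. GENCODE lists 3 antisense genes over Mylk, and the library kit kept strand, but the strand setting of the counting is not given in the sources used here. Actg2 (chromosome 6, 83512905 to 83536265), the enteric smooth muscle actin, was listed at 0 in 12 libraries and at 1.13 FPKM in Lmo2-/- HE1 replicate 0. Members share little sequence with other genes: 7 of 1986 50-base words of the longest Acta2 transcript occur in a transcript of another gene, and 12 of 1537 in Tagln2, and in the other 8 members none do.

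The set thus changed in make-up between the stages. The summed FPKM of the 10 genes was 71.6 to 200 in Flk-1+ libraries, of which Tpm1 gave 53.8 to 71.0 percent and Acta2 at most 1.01 percent. In HE1 the sum was 523 and 499 in libraries labelled WT and 573 and 1142 in those labelled Lmo2-/-. Acta2 gave 31.6 and 22.8 percent of it in the libraries labelled WT, and 45.9 and 71.4 percent in those labelled Lmo2-/-. In HE1 labelled WT the order of mean FPKM was Tpm1 (157), Acta2 (140) and Tagln2 (117), followed by Tagln (52.1) and Cnn2 (27.7). The ranges of Tpm1 and Acta2 overlapped there, as did those of Acta2 and Tagln2, whereas Tagln lay below Tagln2 and Cnn2 below Tagln in each library. In HE1 labelled Lmo2-/- Acta2 led with a mean of 539 FPKM and did not overlap with Tpm1 at 125.5, whereas Tpm1 overlapped with Cnn2 and lay above Tagln2 and Tagln, and Cnn2, Tagln2 and Tagln overlapped.

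**Figure D2:**
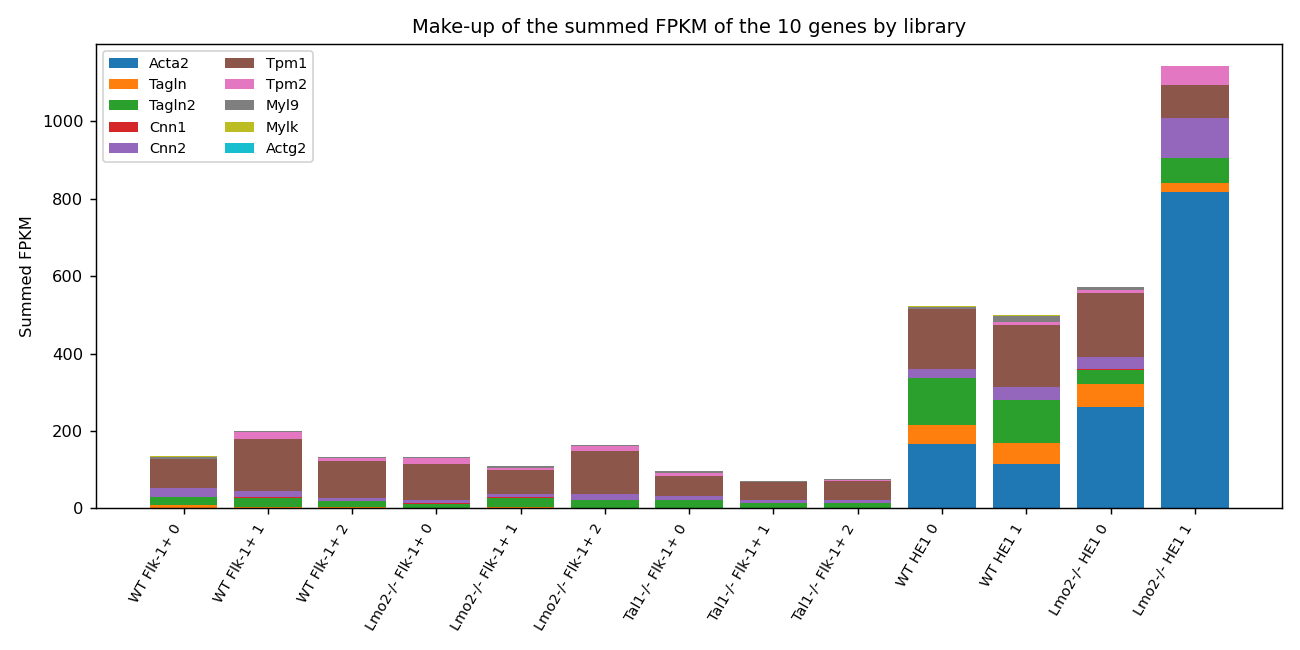
Summed FPKM (vertical axis) of the 10 genes in each of the 13 libraries, with each gene as a coloured segment. Flk-1+ libraries reach 71.6 to 200 and are mostly Tpm1, whereas HE1 libraries reach 499 to 1142 and hold a large Acta2 segment.

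Across the set, HE1 lay above Flk-1+ cells in all libraries for 6 of the 9 members tested in WT: Acta2, Tagln, Tagln2, Cnn2, Tpm1 and Mylk. The same held for 27.6 percent of all 13802 genes tested. A gene was tested if it reached 1 FPKM in 2 or more libraries, which Actg2 did not. In Lmo2-/- cells it held for 5 of the 9, Tpm1 being the difference, and for 31.9 percent of all genes. No member lay below in all libraries in WT or in Lmo2-/- cells, against 17.2 and 15.1 percent of all genes. On the log2(FPKM + 1) scale, which understates the change of low genes, the median difference of the 9 members was 0.93 in WT and 0.90 in Lmo2-/-, against 0.11 and 0.30 for all genes. The rule used this contrast, so nothing is read from these counts. Rescaling each library to a common median, which moved the median of all genes to -0.37 in WT and -0.46 in Lmo2-/-, left 4 of 9 members in WT and 3 of 9 in Lmo2-/- cells. Without Lmo2-/- HE1 replicate 1 the Lmo2-/- count was 7.

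**Figure D3:**
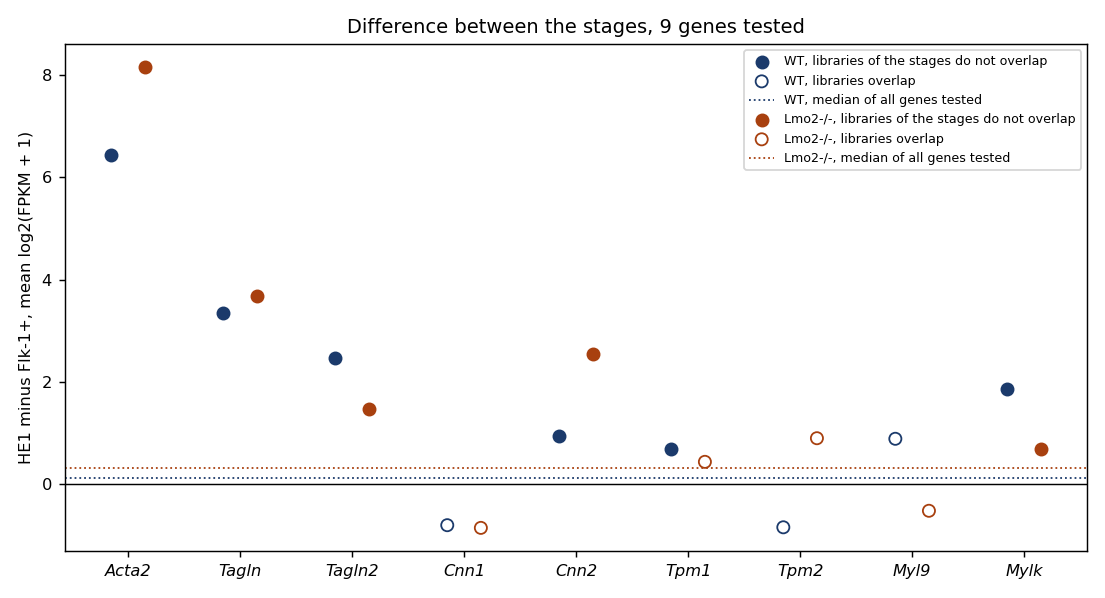
Difference between the stages (vertical axis, HE1 minus Flk-1+ in mean log2(FPKM + 1)) of the 9 members tested, in WT and Lmo2-/- cells, with dotted lines at the median of all genes. Acta2 stands at 6.44 and 8.16, Tagln at 3.34 and 3.68, and Cnn1 below 0 in both genotypes.

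The log2 differences between the stages ranged from -0.85 for Tpm2 to 6.44 for Acta2 in WT, and from -0.86 for Cnn1 to 8.16 for Acta2 in Lmo2-/- cells. Tagln2 differed by 2.46 in WT and 1.46 in Lmo2-/-, Mylk by 1.85 and 0.68, and Cnn2 by 0.93 and 2.54. For Cnn2 the ratio of mean FPKM in Lmo2-/- cells was 7.19, or 3.28 without HE1 replicate 1 and 11.1 without replicate 0. Tpm1 had 0.68 in WT and 0.43 in Lmo2-/-, and turned to -0.0059 and -0.78 when libraries were rescaled to a common median. Whether the stage difference itself depended on genotype was tested as an interaction term in limma for the 8 tested members other than Acta2. None of the 8 passed, where 0.348 percent of all genes did. Cnn1, Myl9 and Mylk had no group mean above 10 FPKM, so they could not be called in it. Mylk, with an interaction of -1.17 on the log2 scale, was the only one with an unadjusted p below 0.05. It entered the test only through the HE1 libraries labelled WT, where it was high, so its p is not given. Among the other 7, the lowest limma adjusted p was 0.420, for Cnn2 (1.60, standard error 0.76). The interaction of Acta2 was 1.72, given as a description.

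Between WT and Lmo2-/- HE1, members were found on both sides. In the libraries labelled Lmo2-/-, Acta2 was higher in both than in either library labelled WT, and so was Tpm2, by 6.83 against 6.80 FPKM at the nearest. Tagln2 and Mylk were lower in both. The shares of all genes tested that did not overlap in this way were 25.9 percent higher and 13.8 percent lower, so 2 of 9 members in each direction is close to them. In limma, fitted to all genes and adjusted by Benjamini-Hochberg, none of the 9 members passed, where 3.01 percent of all genes did (415 genes). An unadjusted p below 0.05 was found for 4 members and for 2851 of all genes. Mylk is among the 4, and nothing is read from it. The log2 fold change was 1.75 for Acta2 (standard error 0.56, limma adjusted p = 0.0950), higher in 2 of 2 libraries. It was -1.26 for Tagln2 (standard error 0.43, limma adjusted p = 0.115), lower in 2 of 2 libraries. Mylk had -1.31, given without its p because only the HE1 libraries labelled WT brought it into the test. Cnn1, Myl9 and Mylk had no group mean above 10 FPKM and so could not be called at any p. Tpm2 had 2.196 with a 95% interval from 0.01 to 4.39 (limma adjusted p = 0.240).

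The other members had wide intervals that included 0, from -1.78 to 0.88 for Tagln, -1.06 to 1.60 for Cnn1, -0.22 to 2.31 for Cnn2, -1.30 to 0.48 for Tpm1 and -3.43 to 0.26 for Myl9. These do not show that the genotypes were alike. The median of the 9 members was -0.41, against 0.15 for all genes. The outcome depended on the Lmo2-/- HE1 libraries. Without replicate 0, the library with the fewest genes above 0 is the sole Lmo2-/- HE1 library and is assumed to vary like the other groups. The log2 fold changes were then 2.56 for Acta2, 1.91 for Cnn2 and 3.53 for Tpm2. Without Lmo2-/- HE1 replicate 1, Acta2 had a log2 fold change of 0.93. Over all 13 alternatives the log2 fold change of Acta2 ran from 0.93 to 2.56. With quantile normalization or a common median, Tagln2 passed as lower, at -1.82 under either, where 175 and 167 of all genes passed.

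**Figure D4:**
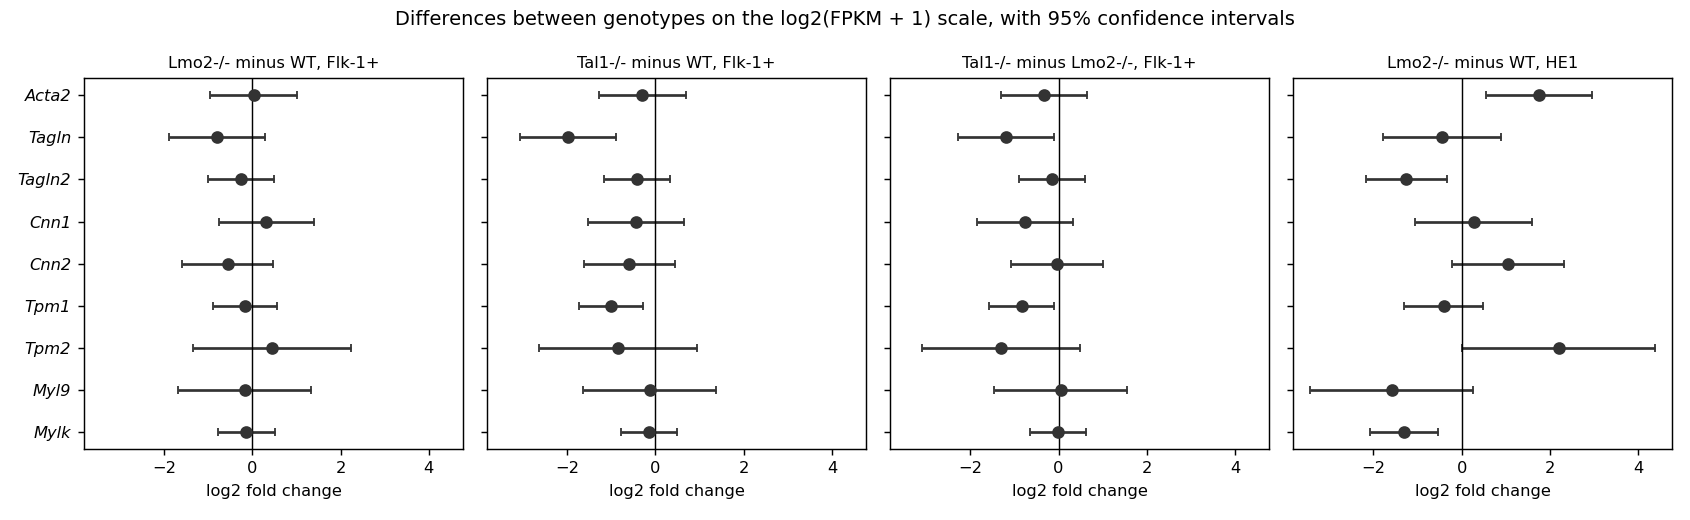
Log2 fold changes (horizontal axes) of the 9 members tested in the 4 comparisons of genotypes, with 95% confidence intervals from limma. In HE1 Acta2 stands at 1.75 and Tagln2 at -1.26, and none of the 9 passed after adjustment over all genes.

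Markers of other cells moved with the HE1 genotype labels. Between the HE1 genotypes 3.01 percent of all genes were called. Of the 9 fibroblast markers tested, 4 were called as higher in HE1 labelled Lmo2-/- and none as lower: Col1a1 (log2 fold change 3.69, limma adjusted p = 0.0172), Col3a1 (3.54), Postn (3.53) and Pdgfra (4.42). Col3a1 entered the test only through the HE1 libraries labelled Lmo2-/-, where it was high, so nothing is read from its call. The rows of Col3a1 and Pdgfra are shared with AC125167.1 and Mir7025. Of the 5 mural markers tested, 3 were called as higher, Pdgfrb (3.80, limma adjusted p = 0.00267), Rgs5 (3.86) and Anpep (3.10). Pdgfrb, a receptor of pericytes and smooth muscle precursors, was at 2.38 and 2.28 FPKM in libraries labelled WT and at 30.3 and 67.7 FPKM in those labelled Lmo2-/-. The summed FPKM of the 10 fibroblast markers was 39.4 and 34.2 against 220 and 859, and that of the 9 mural markers 23.7 and 25.2 against 74.4 and 191. Both sums and Acta2 were highest in Lmo2-/- HE1 replicate 1. Of the mural markers, Kcnj8 was at 0 in all HE1 libraries and Cspg4 at or below 0.990 FPKM. From Flk-1+ cells to HE1 in WT, 2 of 9 fibroblast and 1 of 5 mural markers tested were above in all libraries, and 3 of each list were below. Of all genes tested, 27.6 percent were above and 17.2 percent below. Those above were Postn (19.97 and 12.4 FPKM in HE1, 0 in WT Flk-1+ cells), Col1a2 (9.07 and 7.45 FPKM, at most 1.09) and Mcam (10.3 and 6.91 FPKM, at most 0.298). Those below were Pdgfra (2.98 and 1.01 FPKM, at least 22.5), Prrx1 and Thy1 (0 in HE1). The mural ones below were Rgs5 (0 and 0.312 FPKM, at least 8.47), Anpep (0.109 and 7.48, at least 20.1) and Notch3 (10.9 and 8.03, at least 23.85). In HE1 labelled Lmo2-/-, Rgs5 (4.86 and 46.2 FPKM) and Anpep (17.2 and 37.0) overlapped with Lmo2-/- Flk-1+ cells (16.8 to 30.2 and 30.8 to 40.0). Pdgfra (37.3 and 94.5 FPKM) and Pdgfrb lay above theirs. In Lmo2-/- cells, 7 of 9 fibroblast and 2 of 5 mural markers tested were above in all HE1 libraries. Below were 1 fibroblast marker and 0 mural ones, against 31.9 percent of all genes above and 15.1 percent below. The part of fibroblast or mural cells in the Acta2 difference between the HE1 genotypes was not tested. The summed endothelial markers were 1169 and 1182 FPKM in libraries labelled WT and 917 and 966 FPKM in those labelled Lmo2-/-. No skeletal muscle marker was above 0 in HE1, and the cardiac markers summed to 8.88 to 18.9 FPKM there, against 4.13 to 30.4 FPKM in Flk-1+ cells.

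**Figure D5:**
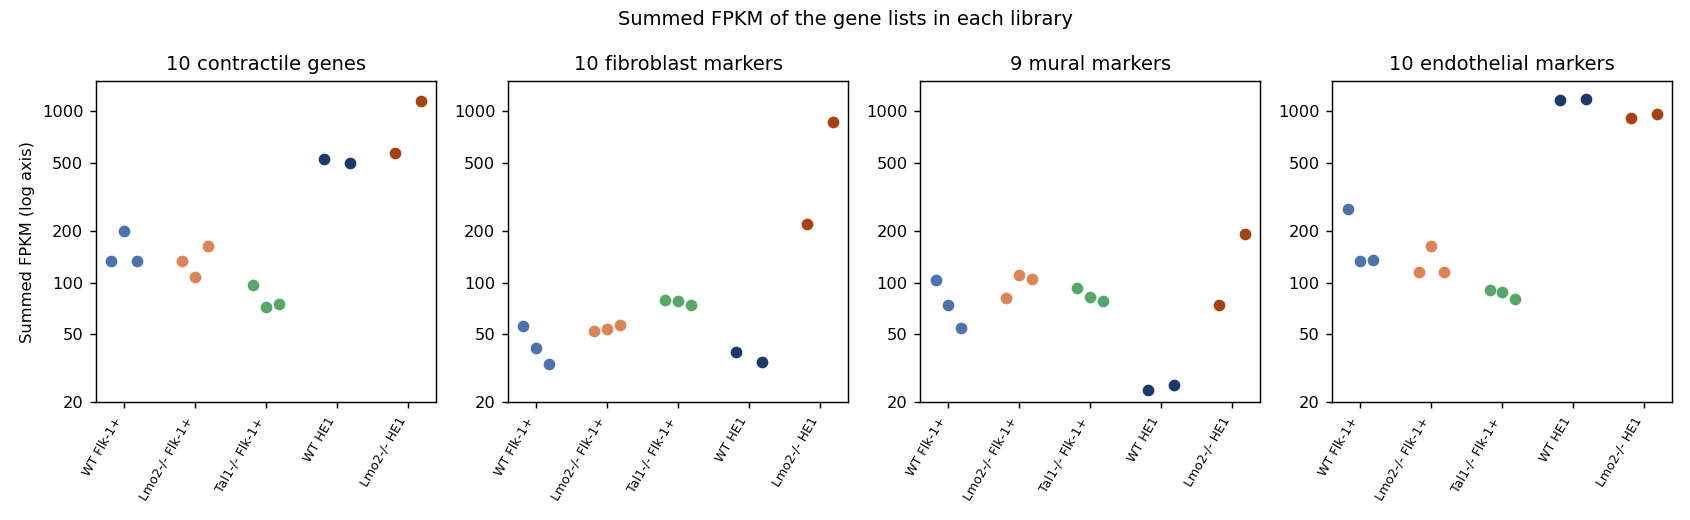
Summed FPKM (log axis) of the 10 contractile genes and of the fibroblast, mural and endothelial marker lists in each library, by group. Fibroblast and mural sums lie higher in HE1 labelled Lmo2-/- (220 and 859, 74.4 and 191) than in HE1 labelled WT (39.4 and 34.2, 23.7 and 25.2), while endothelial sums lie between 917 and 1182 in all 4.

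At the Flk-1+ stage loss of Lmo2 left no detected difference in the set. In limma none of the 9 members passed at this stage, where 0 percent of all genes did. None had an unadjusted p below 0.05, against 307 of all genes. Acta2, Tagln, Cnn1, Myl9 and Mylk had no mean above 10 FPKM in these 2 groups, so they could not be called at any p. The log2 fold changes ran from -0.79 for Tagln to 0.45 for Tpm2, with a median of -0.16. The 95% interval of Acta2 was -0.95 to 1.01 and that of Tpm1 -0.89 to 0.57, so differences of such a size cannot be told from the spread between libraries.

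No member passed when Tal1-/- was set against WT at the Flk-1+ stage, and the libraries did not overlap for 2 of the 9. Tpm1 was at 52.0, 44.6 and 48.7 FPKM, a mean of 48.4 ± 3.73 (SD, n = 3) against 101 ± 30.1 in WT and 89.8 ± 25.5 in Lmo2-/- cells, and every Tal1-/- library was below every library of the others. Tagln, at 1.33, 0 and 0 FPKM, was also below all WT and Lmo2-/- Flk-1+ libraries, by 1.328 against 1.343 FPKM at the nearest Lmo2-/- library. Its FPKM is uncertain, and values listed at 0 may be failed estimates. Tpm1 and Tagln were 2 of 9 members, where 7.4 percent of all genes were below in this way against WT and 6.66 percent against Lmo2-/-. The log2 fold change from WT to Tal1-/- was -1.98 for Tagln (standard error 0.50, limma adjusted p = 0.368) and -1.003 for Tpm1 (standard error 0.34, limma adjusted p = 0.627). All 9 members had a negative fold change, from -1.98 to -0.13, although Mylk had 0.17 with quantile normalization and Myl9 0.14 without WT replicate 0, with a median of -0.44 against -0.0088 for all genes. In limma 0 of 9 passed, where 0 percent of all genes did. Acta2, Tagln, Cnn1, Tpm2, Myl9 and Mylk had no mean above 10 FPKM in WT or Tal1-/- Flk-1+ cells, so they could not be called at any p. Unadjusted p-values were below 0.05 for 2 members and for 843 of all genes.

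Tal1-/- Flk-1+ cells were also set against Lmo2-/- ones, which uses the same Tal1-/- libraries. Tagln had a log2 fold change of -1.19 and Tpm1 of -0.84 in it, with limma adjusted p-values of 0.833 and 0.780. None of the 9 members passed, where 0.0145 percent of all genes did, and the median was -0.33 against -0.0044 for all genes. Acta2, Tagln, Cnn1, Cnn2, Myl9 and Mylk had no mean above 10 FPKM in these groups, so they could not be called at any p. The WT and the Lmo2-/- comparison are not independent, so the lower Tal1-/- values of Tagln and Tpm1 are seen once and not in separate cells.

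The regulators of these genes were mostly low and did not follow Acta2 as a group. All 9 were tested and none was called in any comparison of genotypes, where at most 3.01 percent of all genes were. Myocd, Fhl2 and Klf4 had no group mean above 10 FPKM, so they could not be called at any p. Srf was at 3.86 to 9.24 FPKM in Flk-1+ cells, 6.78 and 4.21 FPKM in HE1 labelled WT, and 4.18 and 17.6 FPKM in HE1 labelled Lmo2-/-. Myocd, the cofactor most closely tied to smooth muscle, was listed at 0 in both HE1 libraries labelled WT, in which Acta2 was at 165 and 114 FPKM, and was at 2.29 and 2.80 FPKM in those labelled Lmo2-/-. It was at 0 to 7.25 FPKM in Flk-1+ cells. Mkl2, a cofactor that carries actin signals to SRF, was at 4.75 to 14.7 FPKM in Flk-1+ cells and at 34.9 to 47.1 FPKM in all 4 HE1 libraries. Mkl1 was at 9.42 and 10.1 FPKM in HE1 labelled WT, above 2.73 to 7.70 FPKM in WT Flk-1+ cells, and overlapped between the Lmo2-/- stages.

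Csrp1, a LIM protein of smooth muscle, was at 22.6 to 37.5 FPKM in HE1. It was at 1.046 to 3.12 FPKM in WT Flk-1+ cells, below the 5.55 to 10.9 FPKM of Lmo2-/- and Tal1-/- Flk-1+ cells. No Flk-1+ group had a mean above 10 FPKM, so it could not be called between them. Csrp2 was at 5.90 and 5.92 FPKM in HE1 labelled WT, below the WT Flk-1+ libraries, and at 16.2 and 61.6 FPKM in HE1 labelled Lmo2-/-, above the Lmo2-/- Flk-1+ libraries. Fhl2 was listed at 0 in all 4 HE1 libraries. Klf4, which is known to oppose the smooth muscle programme, was at 0.754 to 6.03 FPKM in Flk-1+ cells and at 1.77 to 3.58 FPKM in HE1. Elk1, whose row is shared with the neighbouring Uxt, was at 3.50 to 18.9 FPKM in all libraries. In WT 4 of the 9 regulators were above and 3 below in all HE1 libraries, and in Lmo2-/- cells 3 and 1, against 27.6 and 17.2 percent of all genes in WT and 31.9 and 15.1 percent in Lmo2-/- cells.

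Of 13 other contractile genes, 10 were tested and none was called in any comparison of genotypes, where at most 3.01 percent of all genes were. Des, Myl6, Ppp1r12b and Ppp1r14a had no group mean above 10 FPKM, so they could not be called at any p. HE1 was above Flk-1+ cells in all libraries for 5 of the 10 in WT and for 6 in Lmo2-/- cells, and below for 2 in each, against the same shares of all genes. Those above in both genotypes were Flna, Cald1, Vcl, Smtn and Ppp1r12a. Flna, which crosslinks actin, was at 564 and 603 FPKM in HE1 labelled WT and at 1433 and 1312 FPKM in HE1 labelled Lmo2-/-, against 97.2 to 375 FPKM in Flk-1+ cells. Cald1 (caldesmon) was at 143 to 341 FPKM in HE1 and 18.7 to 81.6 FPKM in Flk-1+ cells. Vcl (vinculin) was at 107 to 175 FPKM in HE1 and 20.4 to 59.4 FPKM in Flk-1+ cells. Ppp1r12a, a subunit of myosin phosphatase, was at 29.8 to 76.5 FPKM in HE1 and 15.9 to 23.4 FPKM in Flk-1+ cells. Actn1 was at 46.1 and 52.3 FPKM in HE1 labelled WT and at 98.3 and 169 FPKM in HE1 labelled Lmo2-/-. Ppp1r14a, an inhibitor of myosin phosphatase, was listed at 0 in every HE1 library. Ppp1r12b was at 2.66 to 8.82 FPKM throughout.

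The genes most like Acta2 were not members. Over the 13 libraries, log2(FPKM + 1) of Acta2 had the highest Pearson r with Pi16 (0.991), Nfkbie (0.987), Gfod1 (0.986), Adgrf5 (0.985) and Steap2 (0.985), of 13801 genes compared. These values describe mainly the gap between the 9 Flk-1+ and the 4 HE1 libraries, which all such genes share. Adgrf5, an adhesion receptor, was at 0.0260 to 1.22 FPKM in Flk-1+ cells and at 41.8, 31.2, 58.1 and 62.8 FPKM in HE1. Pi16 was at 0 to 0.0870 FPKM in Flk-1+ cells and at 5.77, 6.47, 5.21 and 13.8 FPKM in HE1. The member closest to Acta2 was Tagln with r = 0.890, at rank 870, followed by Cnn2 with 0.870 and Tagln2 with 0.856. Tpm2, Myl9 and Cnn1 were at 0.248, -0.0445 and -0.427.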

How the data were processed

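RNA-seq libraries were made from 5 groups, with the library numbers taken from the column names of the deposited table. Per the study's methods and processing notes, the authors aligned reads to mm10 with TopHat2 (2.0.9), assembled transcripts with Cufflinks (2.0.0) and compared groups with Cuffdiff (2.0.1). The deposited FPKM per library came from Cuffnorm, which scales libraries to each other. Pooled FPKM, p-values and log2 folds of the authors' comparisons were deposited too and not used. FPKM hold no depth, so no counting interval is given.

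Here log2(FPKM + 1) of 13802 genes with a locus over 200 bp that reached 1 FPKM in 2 or more libraries was fitted with limma (3.58.1, R 4.3.3, with trend). All 13 libraries shared 1 estimate of the spread. A gene was called at a Benjamini-Hochberg adjusted p below 0.05 with a group mean above 10 FPKM. The p-values are two-sided and measure the spread between libraries, which the paper describes as biological replicates. With 1 ES cell line per genotype, they do not measure the spread between lines. The fit was tested on simulated data. Alternatives changed the pseudocount, filters, scaling, trend, weights, replicate block and libraries. The members and all lists were chosen with earlier results of these data known. Beyond the members, the named genes are those called, the regulators, the other contractile genes, the most abundant or sort markers of a list, and the 5 genes most like Acta2; markers at or near 0 were added after their values were seen. Loci were compared with GENCODE M21 and promoters read from RefSeq.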

Additional observations from a re-analysis of the deposited data

Results flagged for a closer look

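For 4 genes of the lists outside the set, every HE1 library moved one way from the Flk-1+ libraries in WT and the opposite way in Lmo2-/- cells. Csrp2, a LIM protein of smooth muscle, had a log2 stage difference of -0.66 in WT and 1.24 in Lmo2-/- cells, an interaction of 1.90 that did not pass in limma (adjusted p = 0.451). Klf4 had 0.61 and -0.70, an interaction of -1.31 that did not pass either (limma adjusted p = 0.471). Pdgfra, a fibroblast and mesoderm receptor, had -3.39 and 1.103, and its interaction of 4.49 passed (limma adjusted p = 0.0105). Prrx1, a mesenchymal transcription factor gene at or below 1.25 FPKM in these groups, had -0.35 and 0.71, and its interaction of 1.07 did not pass (limma adjusted p = 0.511).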

How the results depend on the processing

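Of 723 alternative values of the 45 fold changes of members between genotypes or in the interaction, 682 kept direction and side of the threshold, 35 changed sign and 6 came to pass. With all libraries in, Cnn1, Myl9 and Mylk stayed under the limit of 10 FPKM for a call in every comparison. In the main fit so did Acta2 and Tagln in the comparisons at the Flk-1+ stage. The same held for Tpm2 between WT and Tal1-/- and for Cnn2 between Lmo2-/- and Tal1-/- Flk-1+ cells. Values under the limit could not come to pass, so keeping their side of the threshold says little. Between the HE1 genotypes no p of Mylk is given, since only the HE1 libraries labelled WT brought it into the main fit. Of 264 alternative stage differences, 245 moved by less than the spread and 19 by more. Depth is unknown and limits what low genes can show. The causes of the changes below were not tested.

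The number of members called between the HE1 genotypes was 1 with quantile normalization and 1 with a common median, and 0 to 3 when each library was left out in turn. In the interaction it was 0 with the replicate block, and Cnn2 had an interaction of 2.46 without Lmo2-/- HE1 replicate 0, which leaves 1 Lmo2-/- HE1 library. The Lmo2-/- stage count was 3 with a common median. When the fit held the HE1 libraries alone, 0 of all genes were called between the HE1 genotypes in limma, 1453 having an unadjusted p below 0.05. Between the HE1 genotypes 415 genes were called, 175 with quantile normalization, 167 with a common median, 51 with array weights, 149 without Lmo2-/- HE1 replicate 1 and 2182 without replicate 0.

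Signs changed with quantile normalization for Mylk from WT to Tal1-/- (0.17), Mylk from Lmo2-/- to Tal1-/- (0.18) and the Cnn1 interaction (0.13), and with a common median for Myl9 from Lmo2-/- to Tal1-/- (-0.0651) and the Tagln interaction (-0.11). Leaving out 1 library at a time gave ranges across 0 from WT to Lmo2-/- Flk-1+ cells for Acta2 (-0.15 to 0.17), Tagln2 (-0.46 to 0.0452), Cnn1 (-0.0702 to 0.76), Tpm1 (-0.36 to 0.0713), Tpm2 (-0.22 to 1.14), Myl9 (-0.47 to 0.0906). Such ranges were found from WT to Lmo2-/- HE1 for Tagln (-1.08 to 0.18), Cnn1 (-0.18 to 0.71), Tpm1 (-0.91 to 0.0895). Such ranges were found from WT to Tal1-/- Flk-1+ cells for Myl9 (-0.42 to 0.14). Such ranges were found from Lmo2-/- to Tal1-/- Flk-1+ cells for Tagln2 (-0.45 to 0.0554), Cnn2 (-0.25 to 0.24), Myl9 (-0.12 to 0.24), Mylk (-0.0517 to 0.0526). Such ranges were found in the interaction for Tagln (-0.29 to 0.97), Cnn1 (-0.50 to 0.39), Tpm1 (-0.75 to 0.25), Myl9 (-2.88 to 0.0599).

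The replicate numbers do not pair the libraries: the deviations of same-numbered libraries correlated between -0.184 and 0.169. With the replicate block, 0 members were called in every comparison, so it changed no call of a member. Over all genes it moved the calls from 415 to 313 between the HE1 genotypes, from 48 to 14 in the interaction and from 2 to 0 between Lmo2-/- and Tal1-/- Flk-1+ cells (745 with an unadjusted p below 0.05 in limma).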

Other observations

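Genes of the TGF-beta pathway, which is known to induce smooth muscle genes, were compared between the stages. HE1 was above Flk-1+ cells in all libraries for 6 of the 8 tested in WT and 5 of 8 in Lmo2-/- cells, and below for none, against 27.6 and 31.9 percent of all genes above and 17.2 and 15.1 percent below. The receptor Tgfbr2 was at 0.764 to 1.64 FPKM in all Flk-1+ libraries and at 37.0, 33.0, 24.4 and 50.5 FPKM in HE1. Thbs1, which activates TGF-beta, was at 0 to 0.659 FPKM in Flk-1+ cells and at 30.1, 23.2, 56.0 and 15.7 FPKM in HE1. Thbs1 and Tgfbr2 were singled out after their values were seen.

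Among 10 tested paralogues of the members and their motors, 1 was called between the HE1 genotypes, where 3.01 percent of all genes were. Myh10, a non-muscle myosin heavy chain, was at 166 and 138 FPKM in HE1 labelled WT and at 603 and 743 FPKM in HE1 labelled Lmo2-/- (log2 fold change 2.14, limma adjusted p = 0.0137). The cytoplasmic actin gene Actb, at 602 to 3083 FPKM in all libraries, exceeded Acta2 in each of them.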
